A study of Solanum lycopersicum with 95 samples.

Results

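The morning-peaking genes of control leaves are 200 tomato genes of leaves without far-red light. Their mean transcript level was high at each of the 4 morning time points and lower at 6 and 12 h of the first day. They were chosen by measured values of those leaves. In the No FR leaves, the counts of each gene were expressed as CPM (counts scaled to a library total of 1000000), and 11667 of the 34075 genes in the table had a mean of at least 5 CPM at 0, 24, 48 and 96 h. These 11667 genes were ranked by the lowest of the 4 morning means over the larger of the 6 and 12 h means, as a log2 ratio with 1 CPM added to each, and the 200 highest-ranked genes were taken. The levels in No FR leaves are therefore a description, whereas the libraries of Leaf FR leaves and of the fruits of both treatments had no part in the choice. Leaves and fruits of the same treatment and time may come from the same plants, which the labels do not link.

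All plants were tomato (Solanum lycopersicum) of the commercial hybrid cultivar Foundation, grown under white and red light with a photon flux density of 258 µmol m-2 s-1. No FR plants received that light alone, and Leaf FR plants received in addition far-red light, 77 µmol m-2 s-1, on the vegetative organs, starting 63 days after sowing, when the first fruit of the second truss was 10 days past anthesis. Leaflets of the leaf above the second truss and the first fruit of that truss were sampled at 0 (before far-red), 6, 12, 24, 48 and 96 h, with 4 libraries from separate plants in each group except 3 in Leaf FR leaves at 12 h. The trusses were kept outside the far-red compartment, so the fruits of Leaf FR plants had no added far-red light themselves. The light period lasted 16 h and the treatment started 4 h into it. The samples of 0, 24, 48 and 96 h, called morning samples here, were thus taken 4 h after the lights went on, those of 6 h after 10 h of light and those of 12 h after 16 h, at the end of the day. The part of the day and anything else that changed between these hours cannot be told apart.

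Plants anticipate dawn and dusk with a circadian clock, a network of transcription factors expressed at different hours that repress one another. In Arabidopsis, its morning genes encode MYB-related factors that peak around dawn and repress genes of the evening, and the clock, together with light and sugars, sets the daily course of many genes of photosynthesis and starch metabolism. In leaves, starch is made during the day and broken down at night. The gene IDs of the count table are not paired with names, so members are given by ID and only 1 of the 200 is given a name here, the one it has in the study. This member, Solyc08g083320.4, is SlGBSS1, a granule-bound starch synthase, the type of enzyme that elongates the amylose of starch granules. Leaf and fruit identity was for the same reason not checked against marker genes.

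The 95 libraries held between 14769415 and 17957406 counts. The library labelled No FR leaf 12 h replicate 2 stood apart and was left out of the choice of the members. Its mean member level, the mean of log2(CPM + 1) over the 200 genes, was 6.44, against 3.39, 3.69 and 3.86 in the other No FR leaf libraries of 12 h and 6.10 to 6.56 in the 16 No FR leaf libraries of the morning. On a scale where each member's mean of the other 6 and 12 h No FR leaf libraries is 0 and its morning mean is 1, the median position of the 200 members in this library was 1.01, and 195 of them lay nearer to the morning mean. In each of the other 7 libraries of 6 and 12 h, between 0 and 10 members did. When the library was kept in the rule, 151 of the 200 highest-ranked genes were the same. The day courses of Leaf FR leaves and fruits do not use this library.

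**Figure D1:**
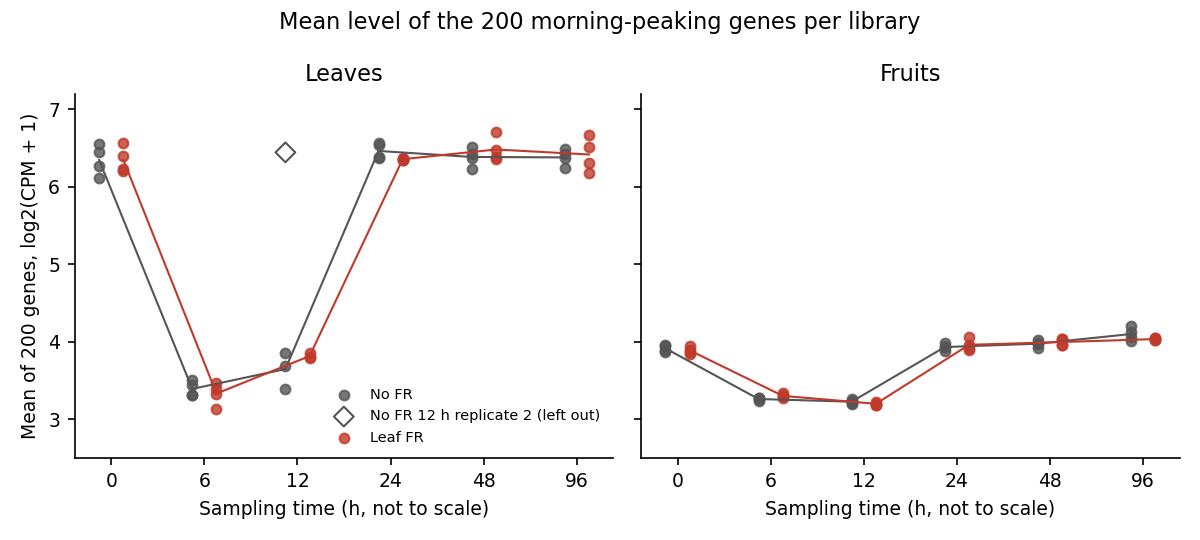
Mean of log2(CPM + 1) over the 200 genes in each of the 95 libraries (points) by sampling time, with group means joined by lines, for leaves and fruits under No FR (grey) and Leaf FR (red). The open diamond is the No FR leaf library of 12 h that was left out of the rule and the lines. In leaves the morning libraries lie between 6.10 and 6.70 and the others of 6 and 12 h between 3.13 and 3.86, and in fruits the morning libraries lie between 3.84 and 4.20 and those of 6 and 12 h between 3.18 and 3.34.

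In No FR leaves the members covered a wide range of levels and of depth of the daily fall. The mean over the 4 mornings lay between 6.29 and 11501 CPM, with a median of 87.6 CPM, and 81 members exceeded 100 CPM on each morning. The ranking value had a median of 1.98 over the members, against -0.72 over all 11667 ranked genes, and reached at least 2, a 4-fold fall, in 97 members, at least 3 in 30 and at least 4 in 11. In 12 members the larger of the 6 and 12 h means was under 1 CPM. The highest morning mean was a median of 1.35 times the lowest, and at most 4.35 times. The rule used the lowest morning mean, so it favoured genes with similar mornings. In Leaf FR leaves, which the rule did not use, this ratio had a median of 1.47 and a maximum of 8.69, with 1 CPM added to each mean. The edge of the group was not a gap: the ranking value was 1.338 and 1.334 at ranks 199 and 200, just inside, and 1.322 and 1.321 at ranks 201 and 202, just outside. In all, 1196 of the ranked genes had a value above 0.

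The highest-ranked gene was Solyc10g005080.3. In the 16 No FR leaf libraries of the morning it had 348 to 488 CPM, with a median of 443 CPM. At 6 h it had 6.59, 7.65, 6.49 and 6.67 CPM, and at 12 h 5.02, 6.41 and 8.14 CPM, with 513 CPM in the library left out. Solyc09g011080.3, the second, had 213 to 662 CPM in the morning (median 461 CPM), 2.09, 16.9, 1.35 and 2.73 CPM at 6 h and 1.78, 5.93 and 11.9 CPM at 12 h, with 499.6 CPM in the library left out. For both genes no library of 6 or 12 h used by the rule reached the lowest morning library. These same libraries gave the genes their rank, so this separation describes the choice and nothing more is read from it. SlGBSS1, at rank 116, had 492 to 775 CPM in the morning (median 684 CPM), 147, 245, 136 and 172 CPM at 6 h and 63.4, 86.3 and 134 CPM at 12 h. The library left out had 770 CPM of SlGBSS1, within the range of the morning libraries.

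The first question was whether the daily course recurred in Leaf FR leaves, which came from other plants. All 200 members were higher in the morning than at 6 and 12 h by edgeR's quasi-likelihood test at a Benjamini-Hochberg adjusted P-value under 0.05, where 19.8% of all 18866 genes tested were higher. The log2 difference between the mean of the 4 morning groups and the mean of the 6 and 12 h groups had a median of 3.30 over the members (lowest 1.39, highest 7.85) and of -0.03 over all genes tested, and 61 members exceeded 4. On the CPM scale, 173 members had every morning library (16) above every library of 6 and 12 h (7), which 2.22% of all genes tested had. Taken alone, 6 h was lower than the morning for 199 members (19.1% of all genes, median 3.62) and 12 h for 197 members (13.9% of all genes, median 3.04). The exception at 6 h was Solyc06g065970.1 (adjusted P-value 0.128, edgeR), and those at 12 h were the same gene (adjusted P-value 0.0589, edgeR), Solyc05g015800.3 (adjusted P-value 0.195, edgeR) and Solyc11g010960.2 (adjusted P-value 0.306, edgeR), which are named after their values were seen. With library totals in place of TMM normalization the median of all genes moved to -0.50 and the background changed from 3739 genes higher and 4128 lower to 1720 higher and 10231 lower, whereas the 200 members stayed higher, with a median of 2.82.

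The mean member level of Leaf FR leaves in the mornings of 0, 24, 48 and 96 h was 6.34 ± 0.17, 6.35 ± 0.01, 6.48 ± 0.16 and 6.41 ± 0.22 (SD, n = 4 each). It was 3.33 ± 0.14 at 6 h (SD, n = 4) and 3.81 ± 0.03 at 12 h (SD, n = 3). The 12 h libraries (3.78 to 3.85) lay above those of 6 h (3.13 to 3.47) without overlap, and 135 of the 200 members had a higher mean at 12 h than at 6 h, against 44.5% of all genes ranked there. In No FR leaves, where the rule used these means, it was 120 of the 200, against 65.8% of all genes ranked. The members together took 4.97 to 7.24% of all counts in the morning libraries and 1.03 to 1.45% in those of 6 and 12 h. Solyc10g005080.3 had 360 to 579 CPM in the morning (median 454 CPM), 7.01, 5.43, 8.10 and 7.88 CPM at 6 h and 8.75, 6.41 and 8.37 CPM at 12 h. Its morning and later libraries were far apart, with a log2 difference of 6.40 (standard error 0.18, adjusted P-value 7.86e-16, edgeR). When the ranking was repeated in Leaf FR leaves alone, 195 members were eligible and 166 were among the 200 highest-ranked genes, which made up 1.74% of the 11494 eligible genes.

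In the fruits many of the same genes differed between morning and later samples in the same direction as in leaves, by smaller amounts. The fruits of 6 and 12 h were taken on the first day, and those of 24, 48 and 96 h were older. The comparison therefore mixes time of day with fruit age, and these were not tested apart. Between organs, the morning mean under Leaf FR was lower in fruits than in leaves for 178 of the 200 members and for 37.2% of all genes ranked in Leaf FR leaves. The members were chosen for high morning values in leaves, so this count is a description. In No FR fruits 28 members had under 1 CPM at every time point. Since leaflets and fruits were sequenced without separating their cells, fewer cells that express a gene and less RNA per cell cannot be told apart. The mean member level in No FR fruits was 3.91 ± 0.04, 3.93 ± 0.04, 3.97 ± 0.04 and 4.10 ± 0.08 in the mornings of 0, 24, 48 and 96 h, and 3.26 ± 0.02 and 3.22 ± 0.03 at 6 and 12 h (SD, n = 4 each). The morning libraries (3.86 to 4.20) and those of 6 and 12 h (3.20 to 3.27) did not overlap. Under Leaf FR the ranges were 3.84 to 4.06 and 3.18 to 3.34, again without overlap. The mean at 12 h exceeded that at 6 h for 95 members under No FR and 85 under Leaf FR, where 57.9% and 63.6% of all ranked genes did so.

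Of the 200 members, 176 passed the filter on low counts in No FR fruits (at least 10 counts in at least 3 libraries). Of these, 138 were higher in the morning and 3 were lower, against 10.5% and 10.4% of all 18981 genes tested (edgeR, adjusted P-value under 0.05). The median log2 difference was 0.77 over the tested members and 0.00 over all genes, and 68 members separated every morning library (16) from every later one (8), against 0.853% of all genes tested. Under Leaf FR 177 members were tested in fruits, and 134 were higher and 5 lower, against 14.8% and 15.7% of 18945 genes. The median was 0.87 over the tested members and -0.01 over all genes, and 81 members had non-overlapping libraries, against 1.39% of all genes tested. With 0 h left out of the morning, 6 members were lower in No FR fruits instead of 3. Without 12 h replicate 3 the number was 1 and without 12 h replicate 1 it was 5. For Leaf FR fruits it was 3 instead of 5 without 6 h replicate 1, 12 h replicate 1 or 12 h replicate 3.

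The calls of the fruit treatments, which share no library, fell into a few classes. There were 128 members higher in the morning in both, 3 lower in both, 28 tested without a call in both and 23 not tested in either. Another 15 were called higher in 1 of the treatments only (10 under No FR and 5 under Leaf FR), 2 were called lower under Leaf FR only, and 1 was tested, and higher, under Leaf FR only. Of the 176 members tested in both, 166 had a difference of the same sign, and the Spearman correlation of the differences was 0.95 over these genes, which share their libraries and are not independent replicates. In Leaf FR leaves the median log2 difference of the 128 members was 3.24, that of the 28 was 3.11 and that of the 23 was 4.39. The 23 untested members had a median morning level of 36.3 CPM in Leaf FR leaves and 0.0484 CPM in No FR fruits, where none exceeded 0.279 CPM, so at this depth a daily course in fruits was not detectable for them. Over the 176 members tested in No FR fruits, the difference there had a Spearman correlation of 0.47 with the difference in Leaf FR leaves, and these libraries come from different organs and treatments.

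**Figure D2:**
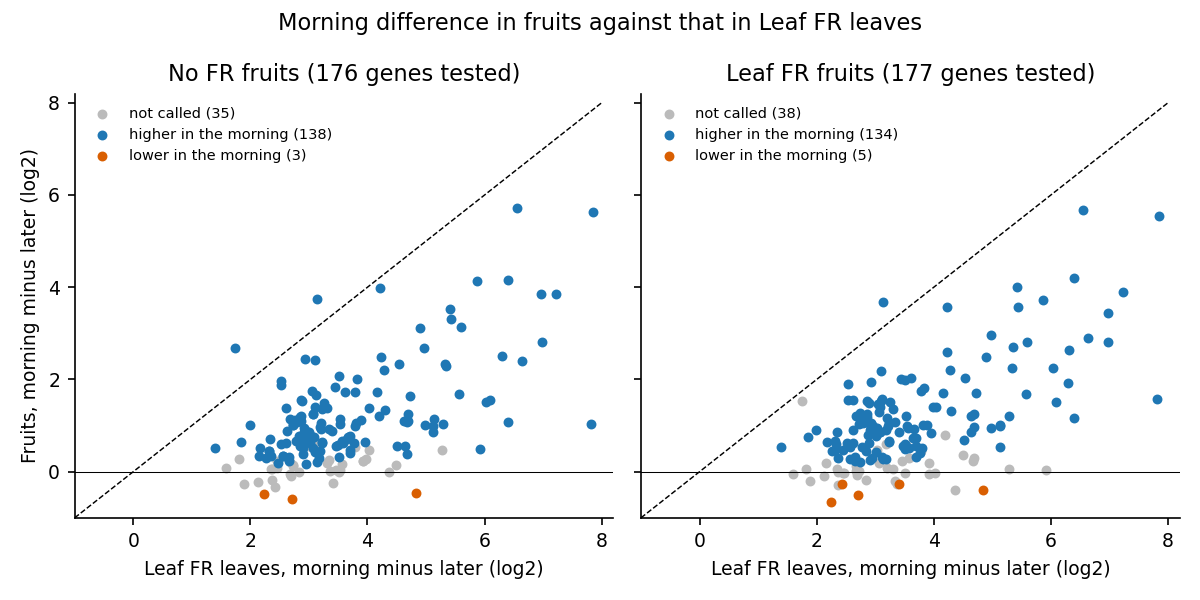
Morning minus later difference (log2, edgeR) of each member in No FR fruits (left, 176 genes) and Leaf FR fruits (right, 177 genes) against that in Leaf FR leaves. Points are genes coloured by their call in the fruits, with 138 higher and 3 lower on the left and 134 higher and 5 lower on the right. The dashed line marks equal differences, and most points lie below it.

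The largest differences in fruits were those of Solyc10g084430.2 and Solyc02g063000.4. Solyc10g084430.2, at rank 55, had 1.95 to 5.96 CPM in the morning libraries of No FR fruits (median 3.22 CPM) and 0 to 3 counts, at most 0.188 CPM, in each library of 6 and 12 h. Leaf FR fruits had 2.10 to 4.44 CPM in the morning and at most 4 counts of it in a later library. The fitted log2 differences of 5.71 (standard error 0.33, adjusted P-value 6.89e-12, edgeR) and 5.67 (standard error 0.32, adjusted P-value 2.93e-12, edgeR) depend on how the fit handles these low counts. In leaves the same gene kept 3.66 to 6.84 CPM at 12 h under Leaf FR while it had 0 or 1 count in each library of 6 h. Solyc02g063000.4, at rank 3, had 15.8 to 122 CPM in the morning and 0.251 to 2.23 CPM later in No FR fruits (log2 difference 5.63, standard error 0.34, adjusted P-value 1.56e-11, edgeR) and 24.3 to 78.2 CPM and 0.356 to 3.33 CPM in Leaf FR fruits. Solyc10g005080.3 had 142 to 191 CPM in the mornings of No FR fruits, 12.2, 13.5, 14.5 and 12.6 CPM at 6 h and 6.04, 6.77, 7.53 and 7.52 CPM at 12 h (log2 difference 4.16, standard error 0.07, adjusted P-value 2.48e-22, edgeR). In these fruits its 12 h libraries were all below those of 6 h, whereas in Leaf FR leaves the libraries of 6 and 12 h overlapped.

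The genes that went the opposite way in both fruits had small differences. Solyc04g072740.3, at rank 168, had 4.09 to 11.8 CPM in the mornings of No FR fruits, 12.1, 8.06, 16.7 and 13.0 CPM at 6 h and 14.3, 15.1, 12.9 and 9.89 CPM at 12 h, and the log2 difference was -0.59 (standard error 0.15, adjusted P-value 0.00801, edgeR). In Leaf FR fruits it was -0.51 (standard error 0.13, adjusted P-value 0.00442, edgeR), while in Leaf FR leaves it was 2.70. Solyc05g007980.3, at rank 165, had 4.85 to 16.2 CPM in the morning and 8.70 to 18.8 CPM later in No FR fruits (log2 difference -0.47, standard error 0.17, adjusted P-value 0.0465, edgeR), a call that was lost in 17 of the alternative settings, most of which left out 1 library. In Leaf FR fruits its difference was -0.65 (standard error 0.16, adjusted P-value 0.00332, edgeR). Its No FR fruit means at 0, 24, 48 and 96 h fell in turn, 12.8, 11.1, 8.89 and 7.51 CPM. At 6 and 12 h they were 13.1 and 14.8 CPM. In Leaf FR fruits the morning means were 11.7, 10.6, 8.71 and 4.91 CPM, and the later ones 12.5 and 14.9 CPM. Time of day and fruit age were not tested apart for this gene. The morning and later fruit libraries of both genes overlapped under No FR.

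**Figure D3:**
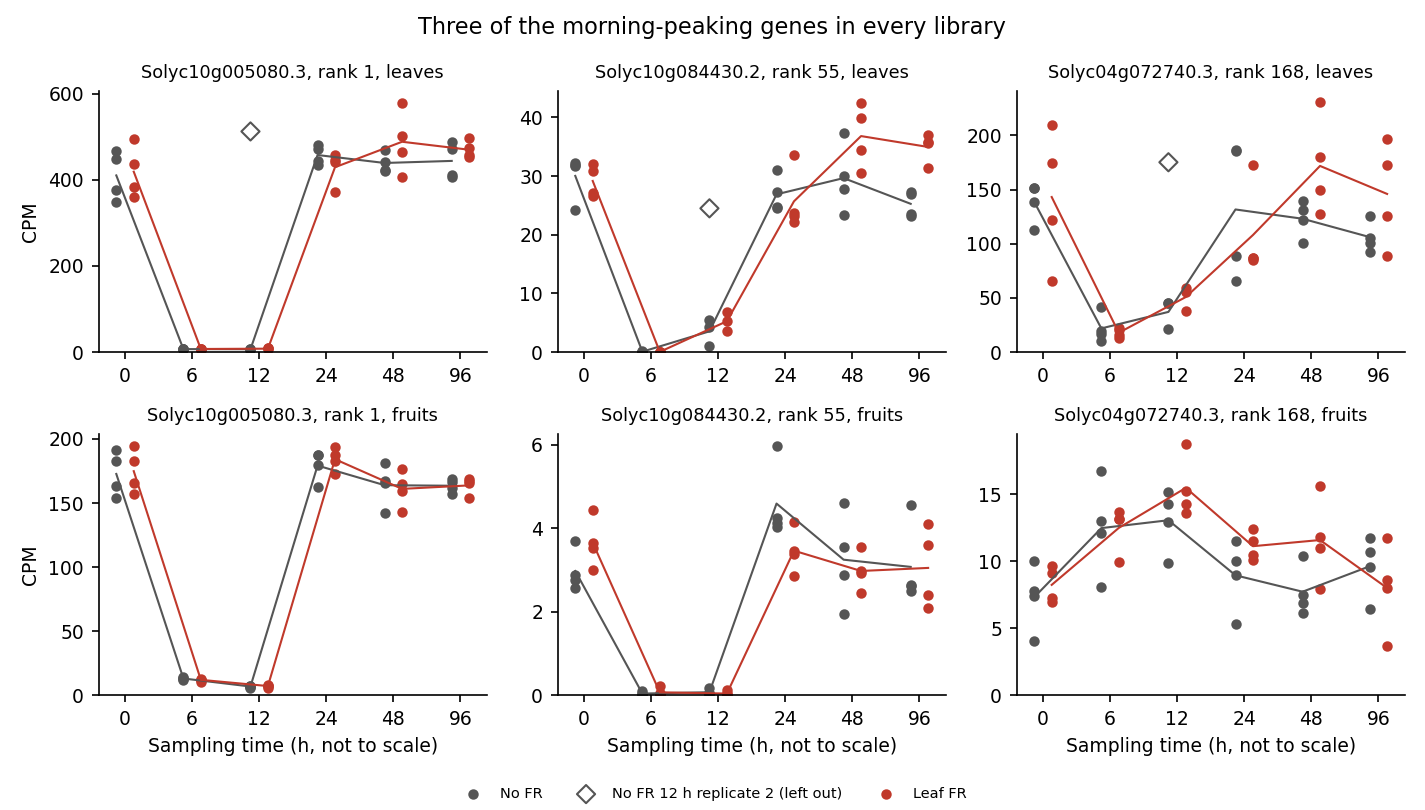
CPM in every library by sampling time for Solyc10g005080.3, Solyc10g084430.2 and Solyc04g072740.3 in leaves (top) and fruits (bottom), No FR in grey and Leaf FR in red, with group means joined by lines. The open diamond is the library left out. The first gene falls at 6 and 12 h in both organs, the second has at most 4 counts in any fruit library of those times, and the third falls in leaves, while its fruit group means at 6 and 12 h lie above those of the morning.

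Whether the daily difference itself differed between the organs was tested as an interaction in 1 fit over the Leaf FR leaf and fruit libraries. The fit took these libraries as independent, though leaves and fruits may share plants. Of the members, 177 passed the filter on low counts in each of these organs, and the other 23 passed it only through the leaves and are left out of the counts. The difference was larger in leaves for 172 of the 177 and larger in fruits for 1, against 17.8% and 19.2% of the 17331 genes that passed in both organs (edgeR, P-values adjusted over all 20512 genes tested, under 0.05). The median of the leaf difference less the fruit difference was 2.51 over the 177 members, in log2, and -0.03 over the 17331 genes. The members were chosen in leaves, though in other libraries, so a larger difference in leaves is in part what the choice asked for. The member that was larger in fruits was Solyc07g043130.3, named after its values were seen. It had 471 to 1289 CPM in the mornings of Leaf FR leaves and 83.4 to 230 CPM later (log2 difference 3.13), and 29.0 to 85.8 CPM and 3.17 to 5.70 CPM in Leaf FR fruits (log2 difference 3.68). The interaction was -0.54 (standard error 0.18, adjusted P-value 0.0206, edgeR), and the call was lost without replicate 1, without replicate 2 and without replicate 4. The ranking repeated in the fruits placed 74 members under No FR and 68 under Leaf FR among the 200 highest-ranked genes, out of 138 and 137 members that were eligible. These 200 genes made up 1.49% of the eligible genes in each of the fruit treatments.

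SlGBSS1 was higher in the morning than at the later times together in both organs, by less in fruits. In No FR fruits its means were 354, 393, 374 and 347 CPM in the mornings of 0, 24, 48 and 96 h. They were 337 CPM at 6 h and 252 CPM at 12 h, so most of the difference there lay at 12 h. Time of day and fruit age were not tested apart. In Leaf FR leaves it had 440 to 818 CPM in the morning (median 621 CPM), 125, 205, 147 and 176 CPM at 6 h and 140, 110 and 147 CPM at 12 h, without overlap (log2 difference 2.57, standard error 0.19, adjusted P-value 1.50e-09, edgeR). In No FR fruits it had 309 to 415 CPM in the morning (median 367 CPM), 383, 359, 318 and 288 CPM at 6 h and 220, 203, 257 and 328 CPM at 12 h, and 3 of the 6 h libraries and 1 of the 12 h libraries lay within the morning range. In Leaf FR fruits it had 346 to 452 CPM in the morning (median 373 CPM), 320, 314, 325 and 306 CPM at 6 h and 241, 232, 226 and 226 CPM at 12 h, and no later library reached the morning range. The log2 difference was 0.35 in No FR fruits (standard error 0.07, adjusted P-value 0.00168, edgeR) and 0.54 in Leaf FR fruits (standard error 0.04, adjusted P-value 1.72e-10, edgeR). The leaf difference exceeded that in Leaf FR fruits by 2.04 (standard error 0.17, adjusted P-value 1.61e-12, edgeR).

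**Figure D4:**
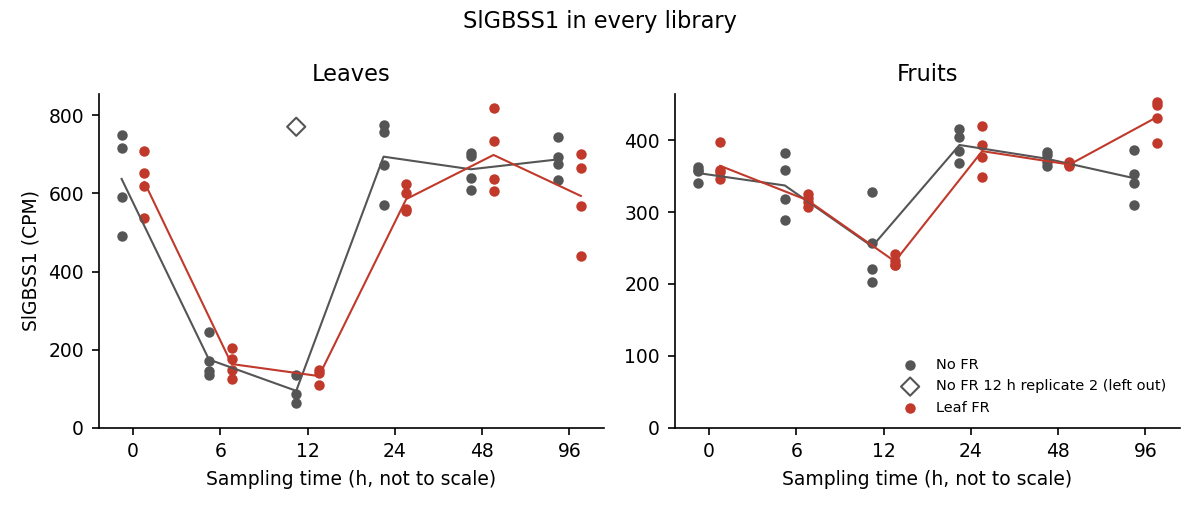
SlGBSS1 (Solyc08g083320.4) in CPM in every library by sampling time, leaves on the left and fruits on the right with separate vertical axes from 0, No FR in grey and Leaf FR in red, group means joined by lines. The open diamond is the library left out. Leaf levels fall from 440 to 818 CPM in the morning to 63.4 to 245 CPM at 6 and 12 h. Fruit levels at 6 and 12 h are 203 to 383 CPM, and under No FR they overlap those of the morning.

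By edgeR 0 members were called for the far-red treatment in fruits, but this test called few genes of any kind, 8 of all genes at 96 h. The study used DESeq2 and reported most of its fruit response at 96 h. The edgeR result is therefore not particular to the members. At 0, 6, 12, 24 and 48 h, 0 members and 0% of all genes were called between Leaf FR and No FR. At an unadjusted P-value under 0.05, 4 of 171, 8 of 166, 16 of 165, 6 of 173 and 22 of 173 tested members passed at these times, which are 2.34%, 4.82%, 9.70%, 3.47% and 12.7% of them, where 1.36%, 3.38%, 2.75%, 4.85% and 7.54% of all genes did. At 96 h 0 of the 176 tested members were called, against 0.0434% of all 18438 genes. Before adjustment 18 higher and 21 lower members passed 0.05 at 96 h, 22.2% of those tested, against 18.6% of all genes. By the DESeq2 Wald test the members called were 0 at 0, 6, 12 and 24 h, where 0.0055%, 0%, 0.00546% and 0.0382% of all genes were called. At 48 h DESeq2 called 1 member (0.0976% of all genes), but it gave no adjusted P-value for 127 of the 173 members and 14302 of the 18442 genes, and 0.435% of the genes with a value were called. At 96 h it called 14 of the 176 members (8 higher and 6 lower under Leaf FR), against 5.81% of all genes. Without Leaf FR replicate 2, edgeR called 11 of the 176 members at 96 h, against 5.15% of all genes. SlGBSS1 was one of the genes called by DESeq2 at 96 h. It had 309, 386, 352 and 341 CPM in No FR fruits and 452, 431, 449 and 396 CPM in Leaf FR fruits, without overlap, and the log2 difference was 0.33 by edgeR (standard error 0.08, adjusted P-value 0.0920) and 0.34 by DESeq2 (adjusted P-value 0.00251). The study listed this gene for its response in these samples, so its direction is not independent evidence. The morning difference of the fruits did not pass the test for a change between the light treatments in any member. There were 0 members and 0% of all 19238 genes called in edgeR, 20 of 177 members passed 0.05 before adjustment (13 larger and 7 smaller under Leaf FR, 5.95% of all genes), and 0 members were called by DESeq2.

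In leaves the light treatments are compared as a description only, since the No FR leaves chose the members and high or low values there enter both. At 6 h, 1 of 186 tested members was called by edgeR (0.365% of all genes), and at 0, 12, 24, 48 and 96 h 0 were called, where 0%, 0.00548%, 0.188%, 0.0795% and 0.263% of all genes were. At an unadjusted P-value under 0.05, 4, 29, 3, 24, 18 and 28 members passed at 0, 6, 12, 24, 48 and 96 h, and 3.17%, 8.91%, 1.26%, 6.87%, 7.53% and 11.4% of all genes. DESeq2 called 0, 11, 0, 9, 2 and 7 members at the same 6 times, where it called 0.121%, 2.82%, 0.115%, 1.51%, 1.44% and 2.51% of all genes, and at 12 h it gave no adjusted P-value for 97 of the 194 members tested. The member called at 6 h was Solyc01g008850.3, at rank 177, with 56.1, 46.2, 63.1 and 56.2 CPM under No FR and 136, 82.9, 137 and 163 CPM under Leaf FR. Its 4 Leaf FR libraries were all above those of No FR (log2 difference 1.16, standard error 0.18, adjusted P-value 0.0432, edgeR). In fruits at 6 h it had 39.0 to 47.3 CPM under No FR and 37.7 to 44.3 CPM under Leaf FR, which overlapped. At 12 h the contrast turned on the library that stood apart: the median over members of the log2 difference, Leaf FR less No FR, was -1.38 with it and 0.19 without it. Without it edgeR called 0 members and 0.0166% of all genes, 15 members were higher and 2 lower at an unadjusted P-value under 0.05 (1.91% of all genes passed), and DESeq2 called 2 members and 0.21% of all genes.

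The members lay on all 12 chromosomes as numbered in the gene IDs, from 7 on chromosome 12 to 28 on chromosome 1. There were 7 pairs of members with consecutive IDs in the table, holding 13 members. Of the 190 eligible neighbours of members, 7.37% were members themselves, against 1.71% of all eligible genes. RSEM divides reads that match several genes among them, so near-identical neighbours could share reads, which was not tested.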

How the data were processed

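RNA sequencing libraries of leaves and fruits (95 in all) were analysed. Per the labels and the study's methods, reads were filtered (SOAPnuke) and aligned to ITAG4.0 (Bowtie2) by the authors, and RSEM gave the deposited expected counts per gene, which were whole numbers without normalization. A second table of normalized counts was not used. Groups and replicates came from the sample labels. CPM used library totals. Differences were tested with edgeR 4.0.16 (quasi-likelihood, TMM, limma 3.58.1, R 4.3.3) over genes that reached 10 counts in 3 or more compared libraries, two-sided, with Benjamini-Hochberg adjustment over all genes tested and a threshold of 0.05. The standard error is the log2 difference divided by the square root of F. Alternatives were DESeq2 1.42.0, its size factors in edgeR, no filter, the replicate number as a block, 0 h left out of the morning and libraries left out. Library totals in place of TMM, DESeq2 and the left-out library in the leaf light contrast, and the count of the organ interaction over genes that passed the filter in both organs were added after seeing the data. The scripts were tested on simulated counts. No libraries of a group agreed within sampling noise (141 pairs, lowest chi-square per degree of freedom 5.37).

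The members and lists were chosen with earlier results of these data known. The count tables hold gene IDs without names, and the RefSeq table at hand does not list these IDs, so lists and markers by gene product could not be applied and no sequences are shown. Named are the first 2 genes of each part of the rule (highest rank, largest difference in both fruits in the same and in the opposite direction), the member named in the study, and exceptions marked as such.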

Additional observations from a re-analysis of the deposited data

Results flagged for a closer look

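Among groups of 4 libraries, the gap between the extreme library and its nearest neighbour was compared with the whole range of the group, for the mean member level in each group and for the 12 named genes at 6 and 12 h. Many of these groups share libraries, and values of No FR leaves chose the genes, so the number of such gaps cannot be read against chance. Of 107 groups, 16 had a gap above 0.829 of the range, which about 1 in 20 single groups exceed by chance. The library labelled No FR leaf 12 h replicate 2 was that extreme in 9 of them: 6.44 for the mean member level, 513 CPM for Solyc10g005080.3, 499.6 CPM for Solyc09g011080.3, 327 CPM for Solyc02g063000.4, 175 CPM for Solyc04g072740.3, 770 CPM for SlGBSS1 (Solyc08g083320.4), 175 CPM for Solyc01g008850.3, 92.7 CPM for Solyc06g065970.1 and 39.9 CPM for Solyc11g010960.2. In No FR leaves at 6 h replicate 2 was highest for Solyc10g005080.3 (7.65 CPM) and for Solyc09g011080.3 (16.9 CPM), and in Leaf FR leaves at 6 h replicate 4 was highest for Solyc06g065970.1 (30.9 CPM). In fruits the extremes were Solyc05g007980.3 at 12 h under Leaf FR (16.5 CPM, replicate 2), Solyc05g015800.3 at 12 h under Leaf FR (56.2 CPM, replicate 3), Solyc04g072740.3 at 6 h under Leaf FR (9.98 CPM, replicate 3) and Solyc07g043130.3 at 12 h under No FR (5.61 CPM, replicate 1).

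The difference between morning and later samples differed between Leaf FR leaves and Leaf FR fruits by the interaction test in edgeR for 172 of the 177 members that passed the filter in both organs with the larger value in leaves and for 1 with the larger value in fruits, against 17.8% and 19.2% of the genes that passed in both. For the named genes the leaf difference less the fruit difference, in log2, was 2.20 for Solyc10g005080.3, 4.19 for Solyc09g011080.3, 2.32 for Solyc02g063000.4, 2.90 for Solyc05g007980.3, 3.22 for Solyc04g072740.3, 2.04 for SlGBSS1, 1.64 for Solyc01g008850.3, 4.40 for Solyc05g015800.3, 2.08 for Solyc06g065970.1, 0.87 for Solyc11g010960.2 and -0.54 for Solyc07g043130.3. The value of the remaining named gene, Solyc10g084430.2, was 0.97 and was not called (adjusted P-value 0.382, edgeR). Several of these genes were named for their values in fruits, which enter the difference. Solyc05g007980.3 and Solyc04g072740.3 were named for being lower in the morning in both fruits. Solyc10g084430.2 and Solyc02g063000.4 were named for the largest fruit differences, and Solyc07g043130.3 for this interaction. All members were chosen in leaves, so these values are a description.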

How the results depend on the processing

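Counts of calls and overlaps stayed within 1.5 times their value in 101 of 109 other settings and in 178 of 187 with a library or replicate number left out. A count of 0 that stayed 0 was scored as kept, as in most fruit light contrasts. Counts in Leaf FR leaves were near the 200 members possible. The kept share therefore says little about these counts. DESeq2 moved the members called for light from 0 to 1 and 14 in fruits of 48 and 96 h (0.0976% and 5.81% of all genes called), in leaves of 6, 24, 48 and 96 h to 11, 9, 2 and 7 (2.82%, 1.51%, 1.44% and 2.51%), and in leaves of 12 h without No FR replicate 2 to 2 (0.21%). The members lower in the morning in No FR fruits became 6 with 0 h left out. With libraries left out in turn, they ranged from 1 to 5 in No FR fruits and from 3 to 5 in Leaf FR fruits, the members larger in fruits by the interaction from 0 to 1, and those called for light in fruits at 96 h from 0 to 11 (5.15% of all genes called where it was 11). The cause was not tested. Members higher in the morning ranged from 199 to 200 in Leaf FR leaves, 133 to 141 in No FR fruits and 132 to 136 in Leaf FR fruits.

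The deviations of same-numbered libraries across time points in Leaf FR leaves had correlations from -0.70 to 0.67. Their mean was -0.08, against 0.02 for libraries of other numbers. Between Leaf FR leaves and Leaf FR fruits of the same time point the mean was 0.06, against -0.02 for other numbers. These values do not exclude a pairing, and the main fits did not pair the samples by number. With the replicate block, 200 members were called higher in Leaf FR leaves (3510 of 18866 genes). Against 6 h alone it was 199 (3437 genes) and against 12 h alone 196 (2262 genes). In No FR fruits 139 of 176 tested members were higher and 2 lower (2121 and 2115 of 18981 genes). In Leaf FR fruits 134 of 177 were higher and 5 lower (2737 and 2930 of 18945 genes). Between organs 177 of the 200 were larger in leaves and 1 in fruits (3127 and 3391 of 20512 genes). Without the block it was 178 and 1 (3210 and 3467 genes). These counts between organs include the 23 members that passed the filter only through the leaves, so nothing is read from them. For light in fruits 0 members were called at any time point or in the interaction. Of 1243 single-gene differences of the named genes under other settings, 1200 kept direction and call and 2 turned: the difference of Solyc10g084430.2 between organs, not called, became -0.52 without replicate 2 (up to 1.58 with other numbers left out), and that of Solyc01g008850.3 in Leaf FR fruits, not called, became 0.0235 without 12 h replicate 2 (down to -0.0722 with other libraries left out).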
